A study of Homo sapiens with 6 samples.

Results

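The proteasome is the protease complex that degrades most short-lived and misfolded proteins of the cell. Its barrel, the 20S core, is built from rings of alpha subunits (PSMA genes), which gate the entrance, and rings of beta subunits (PSMB genes), of which PSMB5, PSMB6 and PSMB7 carry the catalytic sites. The 19S regulatory particle caps the barrel. Its ATPases (PSMC genes) unfold the substrate, and its other subunits (PSMD genes) bind ubiquitin chains, remove them and hold the particle together. Alternative activators (PSME genes) can replace the 19S particle, and interferon-inducible beta subunits (PSMB8, PSMB9 and PSMB10) replace the catalytic ones in the immunoproteasome. Kidney tubular cells, which reabsorb and break down filtered protein, use the proteasome beside the lysosome.

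The family comprised the genes named PSMA, PSMB, PSMC, PSMD or PSME with a number, taken at their row on a primary chromosome. These were 43 of the 41497 named rows of the deposited tables. The family was chosen by the values of the contrast described here, namely a small joint rise of the PSMC genes after TGF-β1, so its counts and fold changes in that contrast are a description and carry no test. By name, 14 members were 20S core subunits (7 alpha and 7 beta), 2 were tissue-restricted 20S subunits (PSMA8 and PSMB11), 3 were immunoproteasome subunits, 6 were 19S ATPases, 11 were 19S non-ATPase subunits, 3 were assembly chaperones that carry PSMD names, and 4 were activators.

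The libraries were made from HK-2 cells, a human kidney tubular epithelial cell line immortalised with a viral oncogene, labelled as wild type. The 3 control libraries came from untreated cells and the other 3 from cells given TGF-β1, each collected at 24 hours. The growth medium in the labels is DMEM-F12 with fetal bovine serum, while the study's methods place its TGF-β treatments in serum-free medium, and the labels give no TGF-β1 dose. The labels give no batch and do not say whether replicates were separate cultures, so adjusted p values measure only the spread between these samples. Library totals ran from 21.9 to 26.9 megacounts (M). Marker levels are in CPM, counts per 1000000 counts of the library after scaling by the TMM factors described below. All 4 epithelial markers were detected, with a summed level of 808 to 868 CPM in control and 1054 to 1213 CPM in TGF-β1 libraries. Within that sum KRT8 went from 471 to 500 CPM up to 702 to 826 CPM and KRT18 was also higher, whereas KRT19 went from 126 to 145 CPM down to 50.6 to 57.3 CPM and EPCAM from 15.4 to 17.7 CPM down to 6.21 to 7.28 CPM. Of 7 proximal tubule and kidney lineage markers, 1 (LRP2) was at 0 in every library and 3 reached 1 CPM in all libraries. The summed level of the 7 was 313 to 348 CPM in control and 196 to 228 CPM in TGF-β1 libraries. PAX8 and GGT1 made up nearly all of that sum, and PAX8, GGT1 and PAX2 were lower after TGF-β1. At low levels, CUBN went from 0.41 to 0.58 CPM up to 0.74 to 0.95 CPM. AQP1 went from 0.22 to 0.68 CPM up to 1.16 to 2.15 CPM. Of 3 leukocyte markers, CD3E was at 0 and PTPRC near 0, and CD68 made up the summed level of 92.0 to 102 CPM in control and 60.9 to 84.5 CPM after TGF-β1. Summed fibroblast markers, nearly all PDGFRB, were at 0.532 to 0.810 CPM in control and 5.59 to 6.54 CPM in TGF-β1 libraries. Summed endothelial markers were at 0.858 to 1.595 CPM in control and at 0 in TGF-β1 libraries. The part of these shifts in the values below was not tested. In bulk RNA, fewer cells of a kind and less RNA per cell cannot be told apart.

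Levels below are raw counts scaled to CPM with TMM factors, which assume that most genes do not change, and are given as mean ± SD with n = 3 libraries per group. Fold changes are log2 TGF-β1 over control from an edgeR fit across the 14860 rows with enough counts, with the standard error (SE). Of the 43 members, 38 had enough counts for the fit. A member was called higher or lower at an adjusted p under 0.05 over all 14860 rows. Gene coordinates are those of the deposited tables, on hg38.

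After TGF-β1, 22 of the 38 fitted members were called higher and 2 were called lower (PSMA6 and PSMB10), while 14 were not called. Over all rows, 22.2% were called higher and 22.1% were called lower. All 3 TGF-β1 libraries lay above all 3 control libraries for 27 members and below them for 2, against 27.9% and 27.7% of all rows. Among the 35 fitted members whose name has 1 row, 21 were called higher and 2 lower. Of the same 35, 25 lay above the control libraries and 2 below. The median log2 fold change was 0.20 over the 38 members and 0.01 over all rows. The rises were small. Among 5103 rows within the control level range of the 35 fitted members whose name has 1 row (41.5 to 497 CPM), 29.6% were called higher and 21.0% lower. The median size of the change was 0.18 log2 in those rows and 0.20 log2 in the 35 fitted members whose name has 1 row. The fitted change was below 0.25 log2 in size in 24 of those 35. PSMD2 alone among them differed by 2-fold or more, which 3.86% of the rows at that level did.

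The size and the calls of the small changes depended on the scaling, as did the direction of some members that were not called. When libraries were scaled by total counts only, the median of all rows moved by -0.11 log2 and the share of higher among all called rows went from 50.05% to 31.74%. Under that scaling 10 members were called higher and 3 lower. PSMC1, PSMC4, PSMD2, PSMD3, PSMD6, PSMD8, PSMD12, PSMA5, PSMB7 and PSME3 kept their call, and the third lower member was PSMD9. The fitted direction of PSMA2, PSMA7, PSMD4, PSMD7 and PSME4, none of them called, was negative under it.

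**Figure D1:**
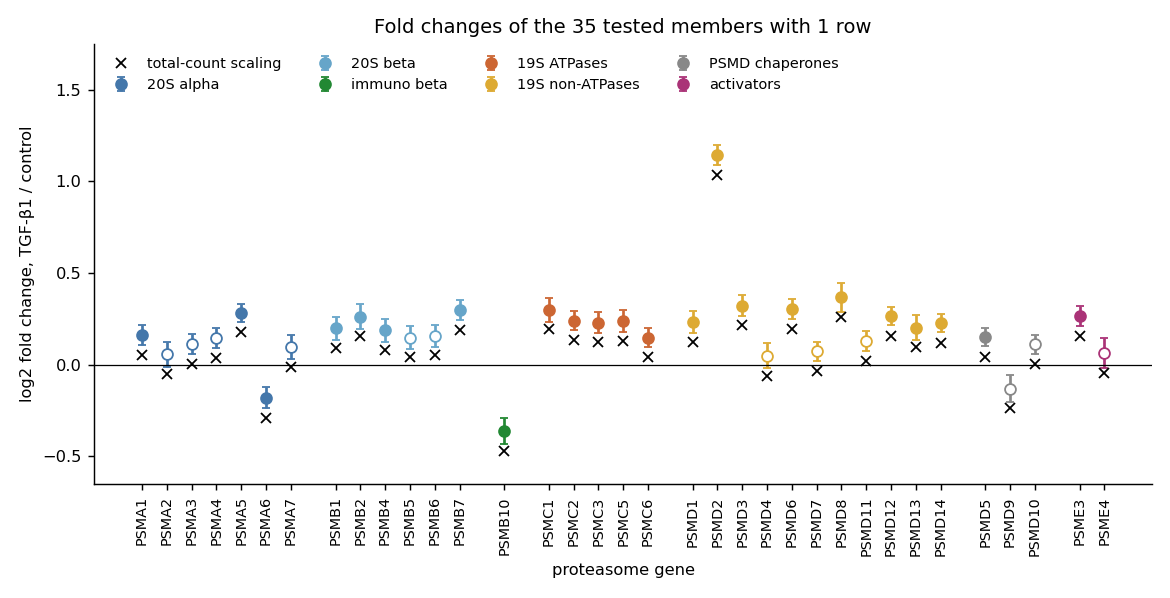
Log2 fold change, TGF-β1 over control, of the 35 fitted members whose name has 1 row, coloured by subcomplex. Circles are the edgeR estimates with TMM scaling and bars their SE, filled where called at an adjusted p under 0.05; crosses are the estimates with total counts only. PSMD2 stands at 1.14, most other members lie between 0 and 0.37, and PSMB10 is lowest at -0.37.

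Names with a second row were set apart first, because their counts behaved unlike those of the rest. Extra rows lie on alternate contigs, which repeat parts of the reference genome. Reads that match both places make the value of such a gene uncertain. Of the 43 names, 6 had such rows, with 2 rows each for PSMB3, PSMC4, PSME1 and PSME2 and 8 rows each for PSMB8 and PSMB9. The highest control library was compared with the lowest over all fitted rows of at least 20 CPM. It was more than 2-fold higher in 2 of 7709 rows of names with 1 row (0.0259%). For names with more rows this held in 21 of 86 rows (24.4%). How reads that match several places were handled is not given in the sources used here, and its part in these values was not tested.

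PSMC4, a 19S ATPase (chr19:39971150-39981764, plus strand), had 37, 58 and 32 counts in control replicates 1 to 3 and 1663, 602 and 1266 in TGF-β1 replicates 1 to 3. The groups did not overlap, and the fitted change was 4.78 ± 0.57 log2. Its TGF-β1 libraries differed among themselves by 2.57-fold, against at most 1.124-fold for the other 5 PSMC genes. Its second row held 1 count in all libraries together. The control mean of PSMC4 was 1.79 CPM, against 65.7 to 147 CPM for the other 5 PSMC genes. The level and the change of PSMC4 are therefore uncertain.

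PSME1, the alpha subunit of the PA28 activator ring (chr14:24136194-24138962, plus strand), had 55, 770 and 1353 counts in control and 2237, 1535 and 43 in TGF-β1 libraries. Control replicate 1 and TGF-β1 replicate 3 were both low, the groups overlapped, and the lowest and highest TGF-β1 libraries differed 41.9-fold. PSME2, the partner subunit of the same ring (chr14:24143365-24146646, minus strand), had 1050, 1269 and 1558 counts in control and 1771, 2537 and 1987 in TGF-β1 libraries. Its groups did not overlap, at 54.9 ± 10.3 CPM and 89.3 ± 19.1 CPM (0.70 ± 0.22 log2). It was not called by edgeR but was called by DESeq2 and when control replicate 3 (0.86 log2) or TGF-β1 replicate 1 (0.85 log2) was left out.

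PSMB3, a non-catalytic beta subunit that every proteasome contains, was at 0 in 5 libraries and at 1 count in TGF-β1 replicate 3 on its primary row. Its row on an alternate contig held 200, 104 and 2709 counts in control and 227, 167 and 142 in TGF-β1 libraries, with control replicate 3 far above the others. These values cannot be read as the level of the gene. The immunoproteasome genes PSMB8 and PSMB9 stand in the same position. PSMB8 was at 0 on its primary row in all libraries, which allows up to 0.0442 unscaled CPM in control and 0.0406 in TGF-β1 libraries, for counting error only, and its 8 rows together held 5 to 37 counts per library. PSMB9 had 3 counts in control and 0 after TGF-β1 on its primary row, and its 8 rows together held 7 to 83 counts per library. Neither could be compared between groups.

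**Figure D2:**
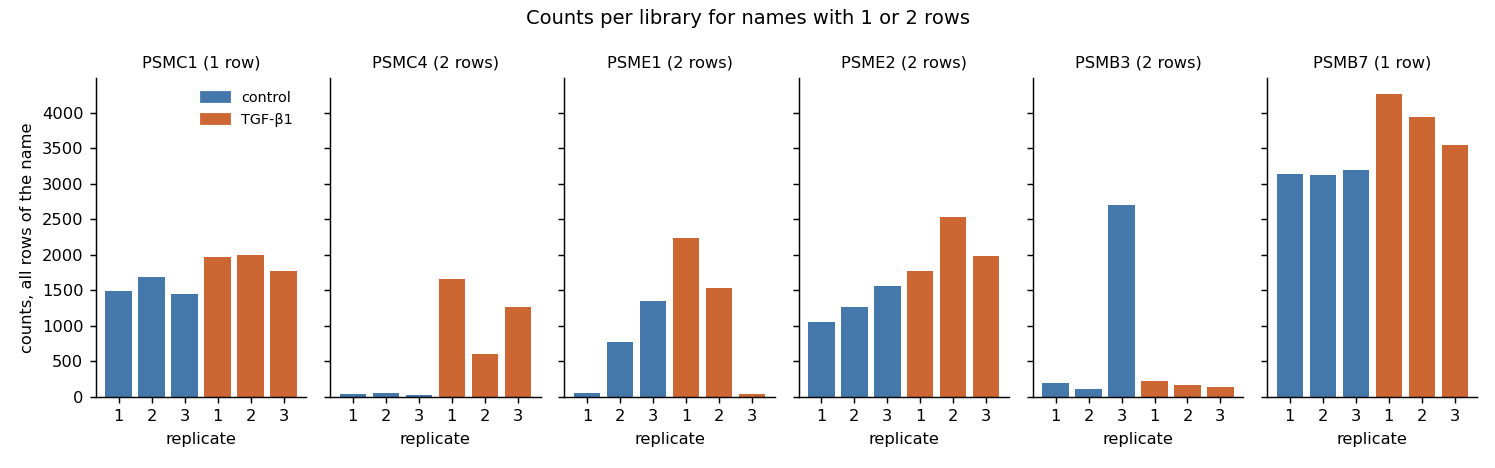
Raw counts per library, summed over the rows of a name, for PSMC4, PSME1, PSME2 and PSMB3 (2 rows each) and for PSMC1 and PSMB7 (1 row each). Blue bars are control and orange bars TGF-β1 replicates; the names with 1 row change little from library to library, while single libraries of PSME1 and PSMB3 differ many-fold within a group.

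The tissue-restricted subunits were at or near 0. PSMA8, the testis form of an alpha subunit, had 1 count in control and 0 in TGF-β1 libraries. PSMB11, the thymus form of the PSMB5 position, had 0 counts in control and 2 in TGF-β1 libraries. No row carried the name of a proteasome pseudogene, so reads of such copies have no row of their own.

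The levels per gene length (TPM, transcripts per 1000000) spanned about the same range in both groups. In control libraries the highest members were PSMB4 (940 TPM), PSMA7 (849 TPM) and PSMB1 (808 TPM), all 20S core subunits, followed by PSMD2 (548 TPM). The median was 379 TPM over the 13 fitted 20S core members and 186 TPM over the 16 19S subunits whose name has 1 row. The lowest fitted members with 1 row were PSME4, the PA200 activator (30.3 TPM), and PSMC1 (36.8 TPM). The exon model used for PSMC1 is 5951 bases long, of which 61.4% overlaps NRDE2 on the opposite strand, and a long model lowers TPM. After TGF-β1, PSMD2 became the highest member, at 1116 TPM, and PSMB4 the second, at 985 TPM. PSMB10 went from rank 25 to rank 33 of the 43 members.

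**Figure D3:**
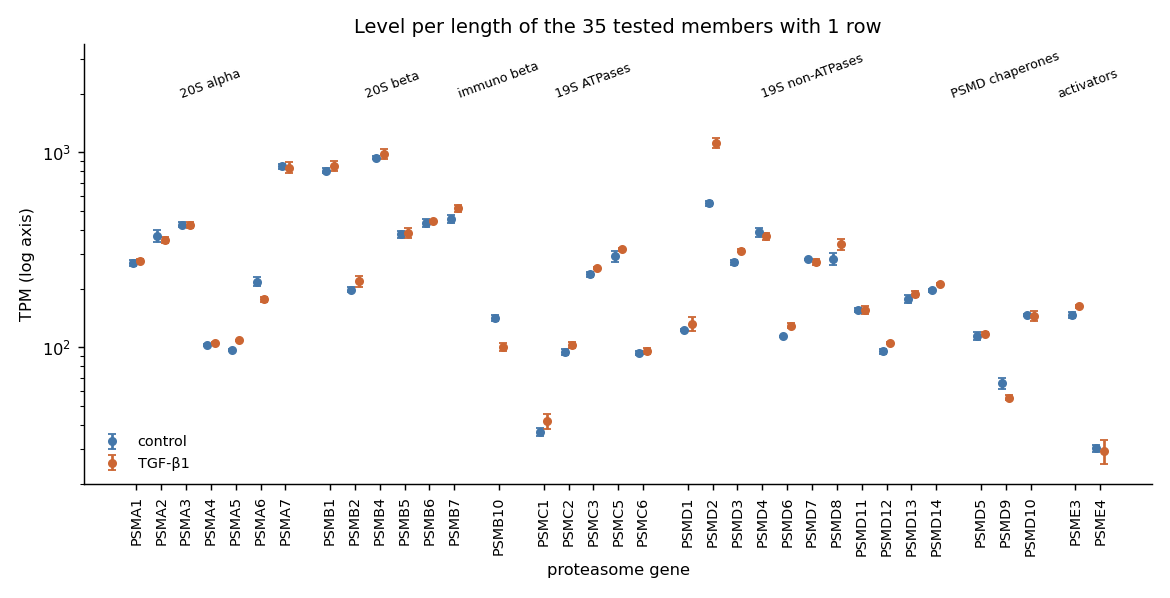
TPM (log axis) of the 35 fitted members with 1 row, grouped by subcomplex; points are group means and bars the SD of 3 libraries, blue for control and orange for TGF-β1. The 20S subunits PSMB4, PSMA7 and PSMB1 are highest in control, and PSMD2 moves from 548 to 1116 TPM.

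The 37 members with 1 row together took 0.536% ± 0.010 of the counts in control and 0.613% ± 0.018 in TGF-β1 libraries. The libraries gave 0.547%, 0.531% and 0.530% in control and 0.633%, 0.598% and 0.607% in TGF-β1 libraries, without overlap. Without PSMD2 the other 36 took 0.484% ± 0.008 and 0.507% ± 0.021. The lowest TGF-β1 library was then at 0.490% and the highest control library at 0.494%, so the groups overlapped in these unscaled shares. With TMM scaling the same 36 summed to 4797, 4627 and 4574 CPM in control. They summed to 5456, 5100 and 5230 CPM in TGF-β1 libraries, without overlap.

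The 5 promoters that follow are those of members the values turn on. They are PSMC1 and PSMD8, which had the highest changes among the ATPases with 1 row and among the non-ATPases after PSMD2, PSMD2 itself, PSMA5 as the alpha subunit with the highest change, and PSMB10 as the lowest member. Each runs from 250 bases before to 50 bases after the start in RefSeq (GRCh38.p14), written 5′ to 3′ on the strand of the gene. Capitals mark CCGGAA, the core of ETS-family sites, and CCAAT, the NF-Y box, on either strand, so that TTCCGG and ATTGG are their reverse complements.
PSMC1 promoter (chr14:90256303-90256602, plus strand): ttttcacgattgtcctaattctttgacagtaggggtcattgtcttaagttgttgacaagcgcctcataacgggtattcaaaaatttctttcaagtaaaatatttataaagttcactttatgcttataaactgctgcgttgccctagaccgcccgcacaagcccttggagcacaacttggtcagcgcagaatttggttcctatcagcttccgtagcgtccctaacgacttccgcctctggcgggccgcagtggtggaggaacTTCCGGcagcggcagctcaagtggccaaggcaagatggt
PSMD2 promoter (chr3:184298991-184299290, plus strand): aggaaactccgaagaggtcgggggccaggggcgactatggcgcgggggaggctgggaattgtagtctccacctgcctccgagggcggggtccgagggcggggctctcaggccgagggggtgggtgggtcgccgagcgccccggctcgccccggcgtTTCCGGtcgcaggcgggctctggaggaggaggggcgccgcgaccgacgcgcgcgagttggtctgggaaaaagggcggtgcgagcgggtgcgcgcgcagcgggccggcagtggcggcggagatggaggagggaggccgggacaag
PSMD8 promoter (chr19:38374321-38374620, plus strand): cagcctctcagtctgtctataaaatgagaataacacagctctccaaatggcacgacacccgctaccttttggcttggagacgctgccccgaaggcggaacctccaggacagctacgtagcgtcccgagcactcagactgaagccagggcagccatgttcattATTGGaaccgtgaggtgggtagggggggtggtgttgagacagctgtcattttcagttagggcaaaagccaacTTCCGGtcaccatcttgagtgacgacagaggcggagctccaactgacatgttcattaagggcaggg
PSMA5 promoter (chr1:109426399-109426698, minus strand): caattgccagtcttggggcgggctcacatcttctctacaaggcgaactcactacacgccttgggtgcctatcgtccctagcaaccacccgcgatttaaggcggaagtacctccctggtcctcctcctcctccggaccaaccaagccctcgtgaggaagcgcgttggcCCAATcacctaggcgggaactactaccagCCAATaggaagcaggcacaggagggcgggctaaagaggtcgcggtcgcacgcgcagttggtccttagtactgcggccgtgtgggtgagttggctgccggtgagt
PSMB10 promoter (chr16:67936801-67937100, minus strand): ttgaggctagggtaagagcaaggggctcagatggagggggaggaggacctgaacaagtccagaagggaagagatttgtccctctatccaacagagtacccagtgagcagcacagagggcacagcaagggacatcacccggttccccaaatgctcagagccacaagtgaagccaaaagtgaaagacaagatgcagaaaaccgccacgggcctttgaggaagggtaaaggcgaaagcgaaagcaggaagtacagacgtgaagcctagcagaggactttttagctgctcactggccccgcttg

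PSMC1, PSMD2 and PSMD8 each held 1 match to CCGGAA, PSMD8 also held 1 to CCAAT, PSMA5 held 2 to CCAAT, and PSMB10 held neither. RefSeq entries were matched for 38 of the 43 members. PSMA7, PSMB1, PSMB6, PSMB7 and PSMD4 had none. The starts used for PSMA1, PSMA6 and PSMC2 lay 123276, 13759 and 3238 bases from the deposited gene start. CCGGAA was in 18 of the 38 member promoters (47.4%), against 17.6% of all 27305 promoters and 28.6% of the 11180 promoters of fitted genes. It was found in 5 of 6 PSMC, 10 of 13 PSMD and 2 of 4 PSME promoters and in 0 of 10 promoters of 20S core genes. Of the members with CCGGAA, PSMD7, PSMD9, PSMD10, PSMD11 and PSME4 were not called, PSMA8 was not fitted, and the others were called higher. A relation between matches and changes was not tested. CCAAT was in 47.4% of member promoters (35.7% of all and 36.5% of those of fitted genes), including 6 of 10 of the 20S core and 3 of 6 PSMC promoters. TGACNNNGC, the antioxidant response element bound by NRF1 and NRF2, was in 28.9% (13.6% and 15.4%). It was in 5 PSMD and 3 PSME promoters, in 1 PSMC promoter (PSMC4) and in 1 of the 20S core (PSMB3). AAGATGGCG, the YY1 motif, was in 5.26% (1.82% and 3.73%), and CAGACA, a SMAD-binding sequence, in 7.89% (16.8% and 12.3%). Both strands were searched, and matches of different motifs may overlap. A match is a description of these letters, not a bound site.

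The ATPases of the 19S base formed the list that drew attention to the family. All 5 PSMC members with 1 row were called higher, against 22.2% of all rows. PSMC4, which was set apart above because its level is uncertain, was called as well. In each of the 6 the 3 TGF-β1 libraries lay above the 3 control libraries in CPM, against 27.9% of all rows. In TPM, which has no TMM factor, the groups overlapped for PSMC1 and PSMC6. The highest control and lowest TGF-β1 libraries were at 38.6 and 37.7 TPM for PSMC1 and at 95.8 and 92.0 TPM for PSMC6. Over the 5 with 1 row the fitted changes ran from 0.15 to 0.30 log2 with a median of 0.24, that is 1.18-fold. Outside the PSMC list, the groups also overlapped in TPM for PSMA1, PSMB1, PSMB4, PSMD1, PSMD5 and PSMD13, all called higher.

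PSMC1, or Rpt2, helps to open the gate of the core (chr14:90256553-90275429, plus strand). It stood at 66.2, 69.1 and 61.9 CPM in control and 75.5, 82.4 and 84.9 CPM in TGF-β1 libraries. The group means were 65.7 ± 3.63 and 80.9 ± 4.86 CPM (0.30 ± 0.07 log2). TGF-β1 replicate 1 was the nearest to the controls. NRDE2, which shares its exons on the opposite strand, was lower after TGF-β1 (-0.20 ± 0.07 log2, edgeR adjusted p = 0.0321). The library protocol describes no strand marking and the strand setting of the counting is not stated, so reads of the 2 genes cannot be told apart where they overlap.

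PSMC2, or Rpt1 (chr7:103344405-103369395, plus strand), stood at 122, 113 and 118 CPM in control and 140, 140 and 135 CPM in TGF-β1 libraries. All TGF-β1 libraries were above the controls by more than the range within either group (0.24 ± 0.05 log2). SLC26A5, on the opposite strand, covers 22.9% of its exon bases and was too low to be fitted, at 0.239 and 0.310 CPM.

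PSMC3, or Rpt5 (chr11:47418775-47426473, minus strand), stood at 129, 125 and 118 CPM in control and 152, 140 and 144 CPM in TGF-β1 libraries (0.23 ± 0.06 log2). PSMC5, or Rpt6 (chr17:63827431-63832019, plus strand), stood at 158, 137 and 146 CPM in control and 180.5, 166 and 173.5 CPM in TGF-β1 libraries (0.24 ± 0.06 log2). For both, the gap between the highest control and the lowest TGF-β1 library was smaller than the spread of the controls. The call of PSMC5 was lost without control replicate 2 (0.19 ± 0.07 log2).

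PSMC6, or Rpt4 (chr14:52707163-52728590, plus strand), was the smallest of the 6, at 111, 105.5 and 103 CPM in control and 118, 116 and 121 CPM in TGF-β1 libraries. Its change of 0.15 ± 0.05 log2 was no longer called by DESeq2 (0.14), with all rows that had a count (0.16), with a mean of at least 50 counts (0.125), or without control replicate 2 (0.14), control replicate 3 (0.12), TGF-β1 replicate 2 (0.16) or TGF-β1 replicate 3 (0.13). With total counts only, PSMC2, PSMC3, PSMC5 and PSMC6 all lost their call, and the median of the PSMC list was 0.13 log2.

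**Figure D4:**
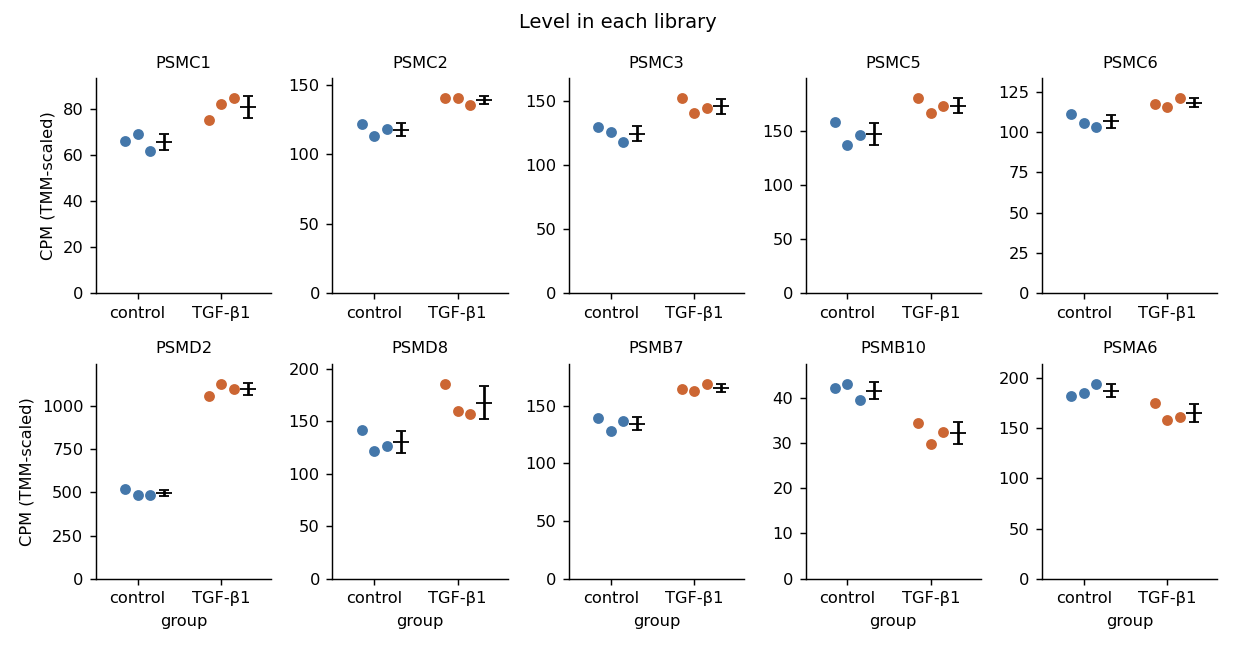
CPM in each library for the 5 PSMC members with 1 row and for PSMD2, PSMD8, PSMB7, PSMB10 and PSMA6. Each point is 1 library, and the bar beside each group is its mean with the SD of 3 libraries; axes start at 0. PSMD2 goes from 497 to 1098 CPM, the PSMC genes lie slightly higher after TGF-β1, and PSMB10 and PSMA6 lie lower.

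Among the other 19S subunits, 8 of 11 were called higher and none was called lower, with a median of 0.23 log2. Over all rows 22.2% were called higher and 22.1% lower, and among the 5103 rows at the level of the members with 1 row 29.6% and 21.0%. Of the 8, PSMD13 (0.20 log2) lost its call without control replicate 2 or 3. PSMD2, or Rpn1, is the scaffold of the base that docks ubiquitin receptors and the deubiquitinase USP14 (chr3:184299241-184309050, plus strand). It stood at 519, 484 and 487 CPM in control and 1061, 1131 and 1101 CPM in TGF-β1 libraries. The group means were 497 ± 19.3 and 1098 ± 35.1 CPM, a change of 1.14 ± 0.06 log2 or 2.21-fold, and the gap between groups was many times the spread within them. No other member with 1 row came near it. PSMD1, or Rpn2, the other scaffold of the base, went from 159 ± 1.74 to 187 ± 12.4 CPM (0.23 log2). The ratio of PSMD2 to PSMD1 in TPM was 4.63, 4.39 and 4.43 in control and 8.69, 8.77 and 7.90 in TGF-β1 libraries.

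PSMD8, or Rpn12, a lid subunit (chr19:38374571-38383824, plus strand), stood at 141.5, 122 and 126 CPM in control and 186, 160 and 157 CPM in TGF-β1 libraries (0.37 ± 0.08 log2). Replicate 1 was the highest of its group in both conditions, and the groups did not overlap. PSMD3, PSMD6 and PSMD12, also lid subunits, were higher by 0.32, 0.30 and 0.26 log2, and PSMD14, the deubiquitinase of the lid, by 0.23 log2. PSMD4, the ubiquitin receptor Rpn10 (chr1:151254734-151267479, plus strand), stood at 162, 162 and 143 CPM in control and 174, 156.5 and 152 CPM in TGF-β1 libraries. Its groups overlapped (0.05 ± 0.07 log2, 95% interval -0.09 to 0.18). PSMD7 (0.07 log2) and PSMD11 (0.13 log2) were not called either.

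The PSMD names also include 3 chaperones that assemble the 19S base and leave it. PSMD9, or p27 (chr12:121888790-121918297, plus strand), stood at 58.3, 53.1 and 49.7 CPM in control and 51.9, 46.3 and 48.9 CPM in TGF-β1 libraries. Its groups overlapped, and its change of -0.13 ± 0.07 log2 was the lowest of the 14 PSMD names. PSMD10, or gankyrin, was not called (0.11 log2). PSMD5 was called higher (0.15 log2), a call lost without any 1 of the control replicates or without TGF-β1 replicate 2 or 3. That call was also lost in DESeq2 and with a mean of at least 50 counts.

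The fitted changes of the 20S core were smaller on median than those of the 19S particle. Of the 13 fitted core members, 6 were called higher and 1 lower, with a median of 0.16 log2. The shares were 22.2% and 22.1% over all rows, and 29.6% and 21.0% over rows at the level of the members with 1 row. The higher calls among the core members were 3 without control replicate 1 or control replicate 2 and 2 without control replicate 3. The 7 alpha subunits had a median of 0.11 log2, with 2 called higher and 1 lower, and the 6 fitted beta subunits a median of 0.19 log2, with 4 called higher. In each library, the median of log2 CPM relative to the control mean was taken over the 13 core and over the 16 19S members with 1 row. The 19S median exceeded that of the core by 0.06, 0.11 and 0.07 in TGF-β1 replicates 1 to 3. In control replicates 1 to 3 the same difference was 0.02, -0.01 and -0.03. The 3 TGF-β1 values lay above the 3 control values, but the lowest was 0.04 above the highest, and since both lists were chosen on this contrast no test is given.

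**Figure D5:**
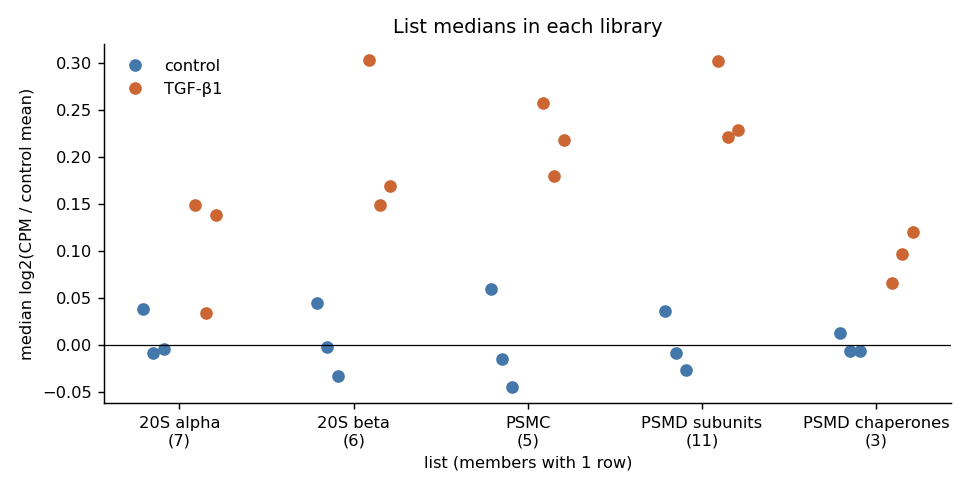
Median over the members of a list of log2 CPM relative to the control mean, 1 point per library, for the 20S alpha, 20S beta, PSMC, PSMD subunit and PSMD chaperone lists (members with 1 row, number in brackets). TGF-β1 libraries reach 0.03 to 0.15 for the alpha subunits, 0.18 to 0.26 for PSMC and 0.22 to 0.30 for the PSMD subunits; the alpha list overlaps the controls.

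PSMA5, the alpha subunit with the highest change (chr1:109399042-109426448, minus strand), stood at 112, 110.5 and 111 CPM in control and 139, 132 and 133 CPM in TGF-β1 libraries (0.28 ± 0.05 log2). Its controls were nearly equal and all TGF-β1 libraries lay well above them. PSMA1 (chr11:14504876-14643662, minus strand) stood at 173, 162.5 and 170.4 CPM and at 199.9, 180.2 and 186 CPM (0.16 ± 0.06 log2). Its call was lost without any 1 of the control replicates (0.14 to 0.18 log2) or without TGF-β1 replicate 3 (0.17 log2). The call of PSMA1 was also lost with a mean of at least 50 counts (0.14 log2).

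PSMA6 was the only core subunit called lower (chr14:35278558-35317493, plus strand). It stood at 182, 185 and 194 CPM in control and 175, 159 and 161 CPM in TGF-β1 libraries (-0.18 ± 0.06 log2). The groups did not overlap, though TGF-β1 replicate 1 was close to control replicate 1. It lost its call when control replicate 2 (-0.19) or 3 (-0.15) or TGF-β1 replicate 2 (-0.16) or 3 (-0.17) was left out, which leaves PSMB10 as the 1 member called lower in those fits. PSMA2 (chr7:42916861-42932174, minus strand) stood at 173, 148 and 160.2 CPM and at 176, 157 and 167 CPM, with overlap (0.06 ± 0.07 log2).

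Of the 3 catalytic subunits, PSMB7 was called higher and the other two were not, and differences between the subunits were not tested. PSMB7, the trypsin-like subunit (chr9:124353465-124415442, minus strand), stood at 139, 128 and 136 CPM in control and 164, 163 and 169 CPM in TGF-β1 libraries. The groups were apart (0.30 ± 0.05 log2). LOC100129034 shares 39.5% of its exon bases on the opposite strand and was lower after TGF-β1 (-0.95 ± 0.06 log2, edgeR adjusted p = 6.15e-07), so reads of the 2 cannot be told apart in the shared part. PSMB5, the chymotrypsin-like subunit and target of bortezomib (chr14:23025851-23035220, minus strand), stood at 149.9, 141.4 and 134 CPM and at 156.5, 148 and 167 CPM, with overlap (0.15 ± 0.06 log2). PSMB6, the caspase-like subunit (chr17:4796164-4798495, plus strand), stood at 113, 115 and 102.5 CPM and at 127.5, 118 and 122 CPM (0.16 ± 0.06 log2). Its groups did not overlap. PSMB5 and PSMB6 were not called, but PSMB6 was called with all rows that had a count (0.17 log2) or with the rows of a name summed (0.16 log2).

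PSMB2, a non-catalytic subunit (chr1:35599541-35641526, minus strand), stood at 282, 269 and 256 CPM in control and 356, 306 and 305.5 CPM in TGF-β1 libraries. The groups were apart, with TGF-β1 replicate 1 the highest (0.26 ± 0.07 log2), and the call was lost without control replicate 3 (0.23 log2). PSMB1 and PSMB4, also non-catalytic, were called higher at 0.20 and 0.19 log2. Both calls were lost without any 1 of the control replicates. That of PSMB1 was also lost without TGF-β1 replicate 2, and that of PSMB4 with a mean of at least 50 counts. Over the fits that left out 1 library, PSMB1 ranged from 0.12 to 0.24 log2 and PSMB4 from 0.11 to 0.22 log2.

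PSMB10, the interferon-inducible counterpart of PSMB7, had the lowest change of the family (chr16:67934506-67936850, minus strand). It stood at 42.0, 43.1 and 39.4 CPM in control and 34.5, 29.7 and 32.4 CPM in TGF-β1 libraries. The means were 41.5 ± 1.91 and 32.2 ± 2.38 CPM (-0.37 ± 0.07 log2), with no overlap, and the call was kept in all 14 other fits. The ratio of PSMB7 to PSMB10 in TPM was 3.29, 2.95 and 3.44 in control and 4.72, 5.45 and 5.19 in TGF-β1 libraries. The overlap of PSMB7 with LOC100129034 bears on this ratio as well.

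Of the activators with 1 row, PSME3, the nuclear activator PA28γ (chr17:42833397-42843760, plus strand), stood at 171, 156 and 157 CPM in control and 197, 194 and 190.2 CPM in TGF-β1 libraries. The groups did not overlap (0.26 ± 0.05 log2). PSME4, the PA200 activator, which binds acetylated histones (chr2:53864069-53970993, minus strand), stood at 64.7, 66.2 and 67.0 CPM and at 59.7, 73.2 and 74.0 CPM. TGF-β1 replicate 1 lay below all controls and the other 2 above them (0.06 ± 0.08 log2). Without that replicate PSME4 was called higher (0.15 ± 0.05 log2). The median of the 4 activators was 0.48 log2, and that of PSME3 and PSME4 alone was 0.16 log2.

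Genes that build, supply or regulate the proteasome were taken from lists that hold no member of the family. Of 51 listed genes, 48 were fitted, of which 18 were called higher and 7 lower by edgeR at an adjusted p under 0.05, with a median of 0.13 log2. Over all rows 22.2% were called higher and 22.1% lower, and among the 5103 rows at the level of the members with 1 row 29.6% and 21.0%. With lists of 5 to 12 genes, the counts per list below are a description. Leaving out control replicate 2 or control replicate 3 gave 11 higher calls, and leaving out TGF-β1 replicate 3 gave 10, while without control replicate 3 the lower calls were 4. With total counts only, 6 were called higher and 10 lower, and TXNL1, POMP, SYVN1, UBA1, B2M and NLRC5, named below, were not called.

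Among 12 assembly and regulation factors, 4 rose and 1 fell. AKIRIN2, which imports proteasomes into the nucleus, rose from 37.9 ± 0.912 to 54.3 ± 6.67 CPM (0.52 ± 0.08 log2, edgeR adjusted p = 0.000514). TXNL1, a thioredoxin-like protein of the 19S particle, rose by 0.24 ± 0.06 log2 (edgeR adjusted p = 0.00796). POMP, the maturation factor of the core, rose by 0.21 ± 0.06 log2 (edgeR adjusted p = 0.0155), a call lost without control replicate 2 (0.18) or 3 (0.20) or TGF-β1 replicate 3 (0.17). ECPAS, a proteasome adaptor and scaffold, fell from 369.5 ± 3.81 to 305 ± 35.6 CPM (edgeR adjusted p = 0.0143). It was not called without control replicate 2 (-0.27 log2).

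Of 5 partners of the 19S particle, 1 rose. USP14, the deubiquitinase that PSMD2 docks, stood at 134, 124 and 129 CPM in control and 159, 166 and 168.5 CPM in TGF-β1 libraries, and rose by 0.35 ± 0.05 log2 (edgeR adjusted p = 0.000306). ADRM1, the ubiquitin receptor Rpn13, stood at 89.8 ± 7.30 and 104 ± 11.8 CPM and was not called (0.21 ± 0.09 log2, edgeR adjusted p = 0.0753), though it was with all rows that had a count (0.22 log2, edgeR adjusted p = 0.0332).

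The 8 genes of the NRF1 axis, the route that induces proteasome genes when the proteasome is inhibited, had 2 rises and 1 fall, shares close to those of all rows. NFE2L1, which encodes NRF1, stood at 303, 307 and 285 CPM in control and 296, 300.4 and 285 CPM in TGF-β1 libraries. Its groups overlapped (-0.02 ± 0.05 log2, edgeR adjusted p = 0.77). MAFK, a small MAF partner, rose by 0.41 ± 0.08 log2 (edgeR adjusted p = 0.00179), and SYVN1, the ubiquitin ligase HRD1 of the endoplasmic reticulum, by 0.30 ± 0.08 log2 (edgeR adjusted p = 0.0112), which was not called without control replicate 2 (0.27). NGLY1, which deglycosylates NRF1, went from 24.0 ± 0.707 to 20.5 ± 1.959 CPM (edgeR adjusted p = 0.0377). That call was lost in DESeq2 and without any 1 control replicate or TGF-β1 replicate 3 (-0.25 to -0.15 log2).

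Of 6 ubiquitin and E1 genes, 3 rose and 1 fell. UBA6, the second ubiquitin-activating enzyme, stood at 248.6, 250.4 and 262 CPM in control and 501, 590 and 586 CPM in TGF-β1 libraries. It rose 2.20-fold (1.14 ± 0.07 log2, edgeR adjusted p = 2.8e-07), the same size of change as PSMD2 to 2 decimals, while UBA1, the main E1, rose by 0.19 ± 0.05 log2 (edgeR adjusted p = 0.0155). The call of UBA1 was lost without control replicate 2 (0.19) or 3 (0.17). RPS27A, which encodes ubiquitin fused to a ribosomal protein, fell (-0.26 ± 0.08 log2, edgeR adjusted p = 0.0239), a call lost without control replicate 1 (-0.20) or 3 (-0.27) or TGF-β1 replicate 2 (-0.19).

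Of 11 shuttle and p97 genes, which deliver ubiquitinated proteins to the 19S particle, 6 rose and none fell. Of the 6, UBQLN1 and UBQLN2 kept their call in all 6 fits that left out 1 library, UFD1 did in 3, and RAD23B, VCP and FAF2 did in 1 each. UBQLN2, a shuttle with a ubiquitin-like domain, rose from 65.5 ± 1.68 to 81.2 ± 0.334 CPM (0.31 ± 0.05 log2, edgeR adjusted p = 0.00062). UBQLN1 rose from 328 ± 10.3 to 399 ± 15.8 CPM (0.28 ± 0.05 log2, edgeR adjusted p = 0.00156).

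Of 9 peptide-loading genes and their regulators, which turn proteasome products into antigen, 6 were fitted, 2 rose and 4 fell. ERAP1, a peptide-trimming aminopeptidase, fell from 176 ± 4.06 to 145 ± 10.99 CPM (edgeR adjusted p = 0.00362). NLRC5, a transactivator of class I genes, rose by 0.30 ± 0.08 log2 (edgeR adjusted p = 0.00983). B2M, the light chain of class I molecules, was called higher (0.32 ± 0.10 log2, edgeR adjusted p = 0.0337), but its name has 2 rows, and the call was lost with the rows summed (0.55) or without any 1 TGF-β1 replicate (0.27 to 0.34). TAP1, the peptide transporter, had 8 rows and was at 0 on its primary row in 5 libraries, with 40 counts in TGF-β1 replicate 3, and could not be compared.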

How the data were processed

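RNA-seq of 3 control and 3 TGF-β1 libraries of HK-2 cells was analysed from 6 tables. The authors selected mRNA on oligo(dT) beads, primed cDNA with random hexamers, and removed adapter and low-quality reads. The submitters' processing notes name CASAVA, featureCounts 2.0.1, DESeq2 1.16.1 and hg38; the aligner is not given in the sources used here. Per the file headers, each table holds raw counts per gene row (unit: counts) and TPM and FPKM values that the authors derived from them. Recomputed TPM and FPKM matched what was deposited to within 3.6e-06. FPKM was not used further. In every table, 7 broken records were rejoined. Of 42095 rows, 598 without a gene name (0.396% to 0.464% of counts) were left out, and 4519 named rows lay on alternate contigs.

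Counts were filtered with filterByExpr (minimum count 10), scaled with TMM and fitted with the edgeR 4.0.16 quasi-likelihood F test, two-sided (R 4.3.3), with Benjamini-Hochberg adjustment over 14860 rows. Alternatives were DESeq2 1.42.0, limma 3.58.1 (voom), RLE size factors, total counts only, all rows with a count, a mean of at least 50 counts, a replicate block, rows of a name summed, and leaving out each library. Members and lists were chosen with earlier results of these data known. Library values are given for all PSMC and PSME genes, PSMB5 to PSMB10, and the 2 highest and 2 lowest changes of the alpha, beta and PSMD lists. In each pathway list the 2 largest called rises and falls are named, with NFE2L1, POMP, ADRM1 and TAP1 in any case, except 1 result that is not reported here; other genes named were added after their values were seen. Promoter and motif searches used RefSeq sequences (GRCh38.p14), and 5 members had no entry.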

Additional observations from a re-analysis of the deposited data

How the results depend on the processing

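Over the 23 members described library by library, each refitted in 14 other ways, 282 of 322 outcomes kept direction and call, 25 lost and 10 gained a call, and 5 changed sign. The 5 were uncalled members, namely PSMA2 (-0.0511), PSMD4 (-0.0600) and PSME4 (-0.0459) with total counts only, and PSMD4 in 2 fits that left out 1 library each (range -0.0230 to 0.0810). Total counts only lowered the members called higher from 22 to 10, the pathway genes called higher from 18 to 6, and the medians to 0.0496 (20S core), 0.13 (PSMC) and 0.11 (PSMD). Every fold change moves by the shift of all rows under that scaling, by construction.

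Leaving out 1 library at a time gave 15 to 25 members called higher, 1 to 3 called lower, 10 to 17 pathway genes called higher and 4 to 8 lower. Medians ranged from 0.11 to 0.19 (20S core), 0.17 to 0.23 (PSMD) and 0.19 to 0.55 (PSME). With members whose name has 1 row only, chosen after seeing the data, 21 were called higher and the PSME median was 0.16. Replicate numbers are shared by both groups, but same-numbered libraries did not deviate together (Pearson correlations of 0.11, -0.01 and 0.08), so they were not treated as pairs. With a replicate block 24 members were called higher and 2 lower, with PSMA4, PSMB6 and PSME2 gained and PSMC6 lost, and among the pathway genes named ADRM1 was gained and B2M lost. Counting depth limits PSMA8, PSMB11 and the primary rows of PSMB3, PSMB8 and PSMB9, which had at most 3 counts per group.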
